A study of Mus musculus with 12 samples.

Results

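The genes described here are the 37 aminoacyl-tRNA synthetase genes named in lists of Jmjd2a (Kdm4a) and Jmjd2c (Kdm4c) binding sites, out of 26219 RefSeq genes. They were taken by symbol from the genes named beside the peaks of each protein and from a table of start sites bound by both. A gene was called occupied by a protein when a peak named for it covered its transcription start site or had an edge within 1000 bp of it. Across all genes, a start site in the table of both proteins counted as well, which gave the same members. The symbols were divided by their last character into 20 cytosolic genes and 17 genes ending in 2, which with one exception encode the mitochondrial enzymes.

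Jmjd2a and Jmjd2c are histone demethylases acting on methylated histone H3, at lysine 9 and at lysine 36. Their binding was measured by chromatin immunoprecipitation and sequencing in L-GMP, mouse leukaemic granulocyte-macrophage progenitors carrying the MLL-AF9 fusion. All 12 libraries came from cell lines derived from leukaemic mice of C57BL/6 background with the genotype Jmjd2a/b/cf/f;Rosa26::CreERT2, grown in medium with 20% FBS and 10 ng/ml IL-3. The control groups carry the floxed alleles and the Cre fusion as well, and the OHT groups received 500 nM 4-hydroxytamoxifen for 96 h, which induces the knockout. Jmjd2a and Jmjd2c have 1 control and 1 OHT library each, and H3K9me3 and H3K36me3 have 2 per condition. The peak lists give positions only, with no height, score or value per library. Depth is therefore unknown, no replicate check exists, and neither the response to OHT nor any histone mark was analysed here. It is not stated which of the libraries entered each list. A missing call is not evidence of missing protein.

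Aminoacyl-tRNA synthetases attach each amino acid to its tRNA, the step that fixes the genetic code. Mammalian cells hold one set of these enzymes in the cytosol and a second, nuclear-encoded set that is imported into mitochondria for translation of mitochondrial mRNA. Gars and Kars encode both the cytosolic and the mitochondrial enzyme for glycine and lysine, Eprs is a fused enzyme for glutamate and proline, and Farsa and Farsb encode the subunits of the cytosolic phenylalanine enzyme. Tarsl2, which ends in 2, encodes a second cytosolic threonine enzyme. Many cytosolic synthetase genes are induced through Atf4 when amino acids run short, by way of a C/EBP-Atf response element (CARE), and many nuclear genes for mitochondrial proteins have sites for the factors Nrf1 and ETS in their promoters.

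The sequences below are shown because, among the promoters matched, the CARE was found in those of cytosolic members only and the Nrf1 core only in those of members ending in 2. They come from RefSeq promoters on GRCm38.p6, the primary assembly of which is that of mm10, and run from 250 bases before to 50 bases after the start. A promoter was matched for 28 of the 37 members. Cars, Hars, Hars2, Lars, Nars, Pars2, Rars, Vars and Wars had none. Each sequence reads 5′ to 3′ along the gene, with the matched motif in capitals on either strand. Gars, Tars and Mars2 are given as the 120 bases before the start, and the others as 30 bases around the match. The intervals are chr6:55037881-55038000 (plus strand) for Gars, chr15:11399659-11399778 (minus) for Tars, chr8:111033840-111033869 (plus) for Aars, chr13:49682126-49682155 (plus) for Iars and chr4:129189895-129189924 (plus) for Yars. For the other motifs they are chr3:99141016-99141045 (plus) for Wars2, chr17:35667621-35667650 and chr17:35667595-35667624 (minus) for Vars2 and chr1:55237057-55237176 (plus) for Mars2.
Gars, CARE: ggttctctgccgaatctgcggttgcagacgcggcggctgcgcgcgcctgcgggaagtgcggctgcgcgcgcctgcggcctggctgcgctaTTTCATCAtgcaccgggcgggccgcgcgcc
Tars, CARE: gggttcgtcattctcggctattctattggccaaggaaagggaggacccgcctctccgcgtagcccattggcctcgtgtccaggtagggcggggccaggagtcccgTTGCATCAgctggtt
Aars, CARE past the start: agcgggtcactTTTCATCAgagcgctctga
Iars, CARE past the start: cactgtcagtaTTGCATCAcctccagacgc
Yars, CARE past the start: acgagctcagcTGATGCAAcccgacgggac
Wars2, Nrf1 core: cagaggacaggCGCATGCGtagtaagcaca
Vars2, distal Nrf1 core: agagtcttttaCGCATGCGcctgcgtgtcc
Vars2, proximal Nrf1 core: gtccccgcccaCGCATGCGcgcgcacctcg
Mars2, ETS core: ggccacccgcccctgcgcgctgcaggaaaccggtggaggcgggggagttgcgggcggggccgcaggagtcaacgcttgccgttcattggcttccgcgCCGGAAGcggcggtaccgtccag

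The CARE was searched as TGATGCAA or TGATGAAA on both strands. It was in 5 of 13 cytosolic promoters (38.5%) and in 0 of 15 promoters of members ending in 2, against 1.90% of all 32851 promoters of this length. Of the matches printed above, those of Gars and Tars began 30 and 15 bases before the start. Those of Aars, Iars and Yars began at bases 10, 8 and 4, counting the start itself as the first base. Not every match of these genes is reported here. The Yars start in the RefSeq table lies downstream of the start used in the peak lists, so its match is further from the latter. The element occurred with either pattern of occupancy: 3 of 8 cytosolic members with both proteins had it, as did 2 of 5 with Jmjd2c alone. Among all promoters of genes with both proteins the share was 0.974%, and among those of genes with Jmjd2c alone 1.19%.

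The Nrf1 core CGCATGCG was in 2 of 15 promoters of members ending in 2 and in 0 of 13 cytosolic ones, against 1.87% of all promoters and 4.83% of those of genes with both proteins. Wars2, for the mitochondrial tryptophan enzyme, held it 63 bases before the start, and Vars2, for the valine enzyme, held it 47 and 21 bases before. The ETS core CCGGAAG, searched on both strands, was in 5 of 13 cytosolic promoters (Farsa, Gars, Kars, Mars and Sars) and in 4 of 15 of the others (Cars2, Mars2, Rars2 and Sars2). It was in 8.86% of all promoters and in 20.8% of those of genes with both proteins. No match of one motif overlapped a match of another in the members' promoters, and a match describes the sequence, not a bound site. The observed to expected CpG ratio of the promoters had a median of 0.712 for cytosolic members and 0.734 for those ending in 2, close to each other and above the 0.384 of all promoters. Genes with both proteins had a median of 0.804, genes with Jmjd2c alone 0.772, and genes with neither 0.248.

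Jmjd2c lay at the start of all 37 synthetase genes, 20 of 20 cytosolic and 17 of 17 ending in 2. Across RefSeq genes the share was 37.9%, and among protein-coding genes without predicted genes 46.3%. Members were found by being named in these lists, so a synthetase gene beside no peak could not be among them. The count of 37 is thus largely set by that choice and is not an estimate of occupancy in the family. Intervals cover counting error over genes only, which are not replicates, and no test was made between gene groups.

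Jmjd2a lay at 25 of the 37 members (67.6%, 50.2 to 82.0), against 27.4% of all RefSeq genes and 33.5% of the protein-coding ones. Every one of the 25 also had Jmjd2c, and both proteins were at 24.5% of RefSeq genes. Because all members had Jmjd2c, the nearer background is the set of genes with Jmjd2c, of which 64.7% had Jmjd2a. The members' share was thus close to that of other genes with Jmjd2c. Jmjd2a was called at 12 of 20 cytosolic members (60.0%, 36.1 to 80.9) and at 13 of 17 ending in 2 (76.5%, 50.1 to 93.2), with intervals that overlap widely. The 12 members with Jmjd2c alone were Aars, Dars, Eprs, Iars, Mars, Nars, Rars and Wars among the cytosolic genes, and Aars2, Cars2, Rars2 and Tarsl2 among the others.

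**Figure D1:**
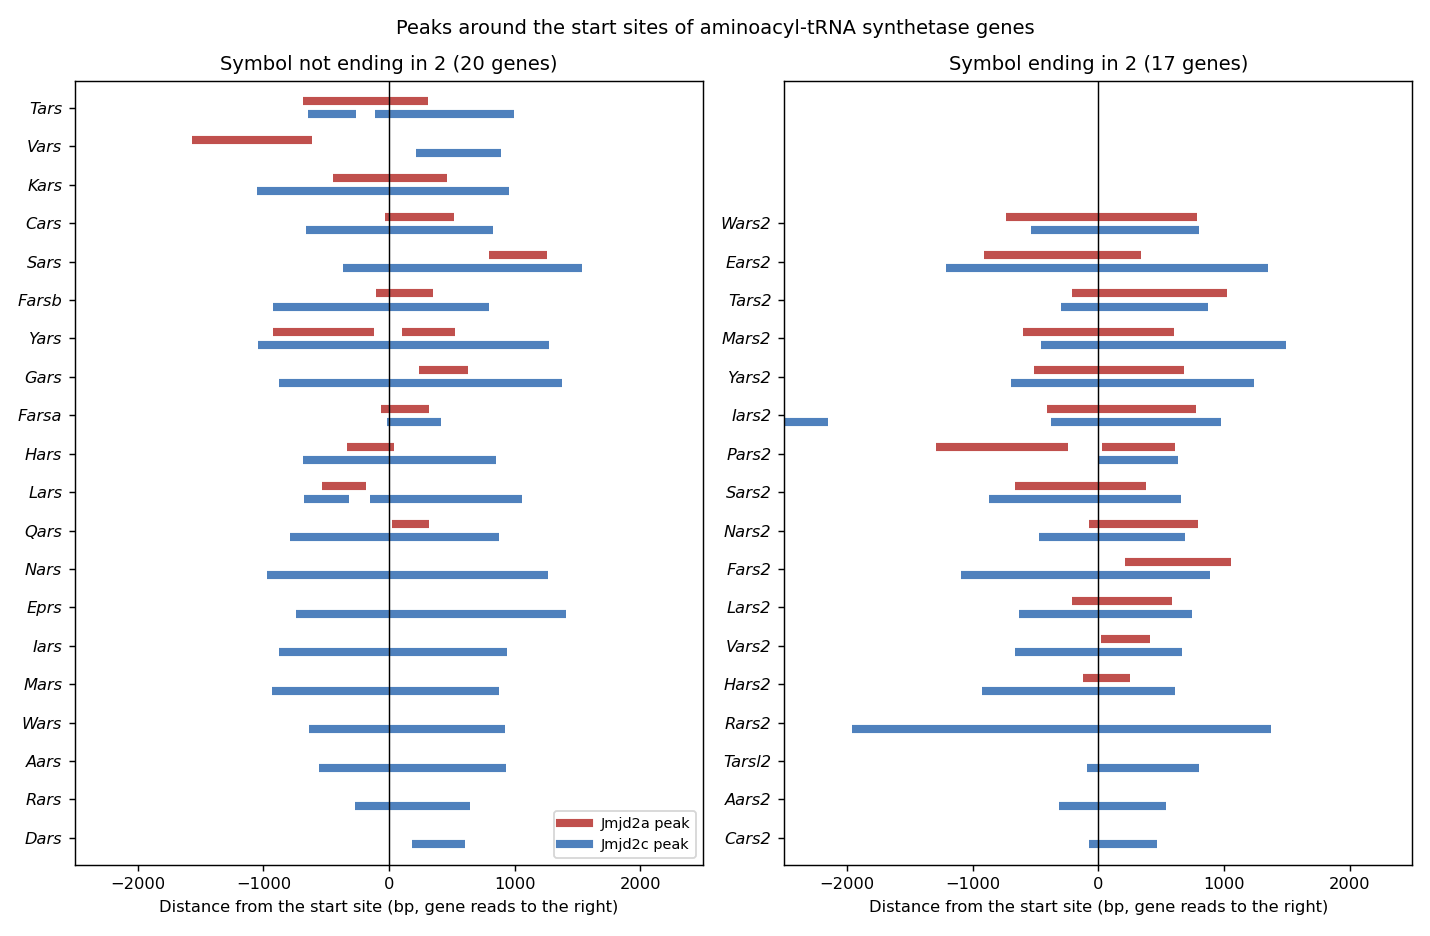
Called Jmjd2a (red) and Jmjd2c (blue) peaks around the start site of each member, drawn to scale in bp with the gene reading to the right and members in order of Jmjd2a width. Every member has Jmjd2c near the start, and red bars are mostly short in the left panel (20 cytosolic genes) and longer in the right one (17 genes ending in 2). Peaks further than the axis reaches, such as those upstream of Rars, are not drawn.

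The width of the Jmjd2a peaks separated the classes further than their number did. At cytosolic members the widest Jmjd2a peak had a median of 436 bp (interquartile range 381 to 640, range 295 to 989, n = 12 genes), and at members ending in 2 a median of 1050 bp (843 to 1200, range 375 to 1526, n = 13). All genes with Jmjd2a had a median of 813 bp (573 to 1114), which lies between the classes. Peaks of over 600 bp were found at 3 of 12 cytosolic members and at 11 of 13 ending in 2, against 71.7% of all genes with Jmjd2a. The ranges overlap, and width is not a measure of signal.

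The narrowest Jmjd2a peaks were mostly cytosolic. Qars, which charges tRNA with glutamine, had a peak of 295 bp (chr9:108508032-108508326), starting 27 bp and ending 321 bp downstream of the start site at position 108508005 on the plus strand, and only 0.546% of genes with Jmjd2a had a narrower one. Lars, for leucine, had a peak of 349 bp, lying 530 to 182 bp upstream. At Hars and Hars2, for histidine, the same peak of 375 bp was counted for both genes. Farsa, the catalytic subunit for phenylalanine, had a peak of 383 bp that covered the start. Apart from Hars2 these narrow peaks belong to cytosolic enzymes, and the next, at Gars (390 bp, 236 to 625 bp downstream), belongs to the enzyme that serves both compartments. Vars2 (392 bp) was the other narrow case among members ending in 2.

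The 8 widest Jmjd2a peaks were all at genes ending in 2. Wars2 had a peak of 1526 bp (chr3:99140352-99141877), from 738 bp upstream to 787 bp downstream of its start, wider than at 93.6% of genes with Jmjd2a. Ears2, which in mitochondria charges tRNAs for glutamate and also, for later correction, those for glutamine, had 1257 bp. Tars2, for threonine, had 1232 bp, and Mars2 and Yars2, for methionine and tyrosine, 1200 bp each. All of these covered the start site. They were followed by Iars2 with 1186 bp, Pars2 with 1050 bp, Sars2 with 1046 bp, Nars2 with 868 bp, Fars2 with 843 bp and Lars2 with 800 bp. Among cytosolic members 3 reached that size, Tars with 989 bp, Vars with 958 bp and Kars with 910 bp, whereas Cars, Sars, Farsb and Yars had peaks of 550, 469, 454 and 418 bp.

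**Figure D2:**
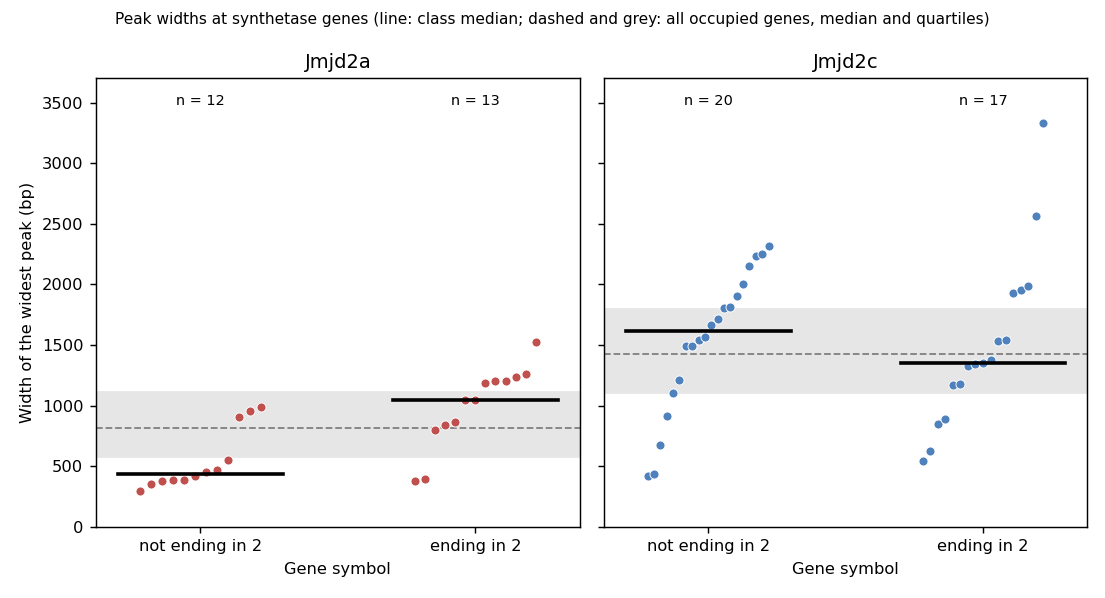
Width in bp of the widest peak at each member (points) by class, with the class median (black line) and the median and quartiles of all occupied genes (dashed line and grey band). For Jmjd2a the class medians of 436 and 1050 bp fall to either side of the dashed line at 813 bp, and for Jmjd2c both medians lie inside the grey band.

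Jmjd2c peaks did not follow that pattern. Their median was 1614 bp at cytosolic members (interquartile range 1188 to 1928, range 418 to 2314, n = 20) and 1348 bp at members ending in 2 (1170 to 1932, range 540 to 3335, n = 17), against 1428 bp (1101 to 1795) at all genes with Jmjd2c. Rars2, for mitochondrial arginine, had the widest, 3335 bp, followed by Ears2 with 2566 bp and Yars with 2314 bp. Dars with 418 bp, Farsa with 433 bp and Cars2 with 540 bp had the narrowest. Across members with both proteins, counting the peak shared by Hars and Hars2 once, the widths of the Jmjd2a and Jmjd2c peaks had a Spearman correlation of -0.02 (n = 24). It was -0.08 within the cytosolic members (n = 12) and 0.16 within the others (n = 12), so a wide peak of one protein did not go with a wide peak of the other. These points come from the same peak lists and are given as a description.

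Set against the Jmjd2c peak of the same gene, the Jmjd2a peak was small at cytosolic members and larger at those ending in 2. Its width was a median of 27.6% of the Jmjd2c width at cytosolic members (range 17.3 to 141) and 62.1% at those ending in 2 (range 24.4 to 167), against 61.4% (interquartile range 40.1 to 85.1) over 6004 genes with both. Members ending in 2 were thus near the median gene, and the cytosolic median was under the lower quartile, although Kars, Farsa, Tars and Vars lay above that quartile. The Jmjd2a peak lay wholly inside the Jmjd2c peak at 8 of 12 cytosolic members and at 6 of 13 others. Gars shows the first arrangement, with its 390 bp of Jmjd2a inside 2251 bp of Jmjd2c. Wars2 shows the second, its Jmjd2c peak of 1340 bp being narrower than its Jmjd2a peak. No share over all genes with both proteins is given beside the counts of peaks lying wholly inside, which are a description only.

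Peaks of both proteins overlapped by at least 1 bp at 24 of the 25 members with both. Vars, for valine, was the exception. Its Jmjd2a peak of 958 bp ended 613 bp upstream of the start (position 35000907 of chromosome 17, plus strand), and its Jmjd2c peak of 679 bp began 216 bp downstream. Pars2, for mitochondrial proline, had a Jmjd2a peak on each side, of 1050 bp ending 243 bp upstream and of 575 bp from 33 to 607 bp downstream, and only the latter overlapped its Jmjd2c peak of 628 bp. No share over all genes with both proteins is given beside the 24 of 25, so that count is a description only.

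Jmjd2a covered the start site itself at 6 of 12 cytosolic members and 10 of 13 ending in 2, against 71.9% of all genes with Jmjd2a. Of the 6 cytosolic peaks beside the start, those of Gars, Qars, Sars and Yars lay downstream and those of Lars and Vars upstream. Sars, for serine, had the peak furthest inside the gene (469 bp, chr3:108443999-108444467), from 792 to 1260 bp downstream of the start at position 108445259 on the minus strand. In the other class Fars2 and Vars2 had peaks downstream, and Pars2 had its wider one upstream. Jmjd2c covered the start at 18 of 20 and 16 of 17 members, all but Dars, Vars and Pars2, against 93.7% of all genes with Jmjd2c.

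**Figure D3:**
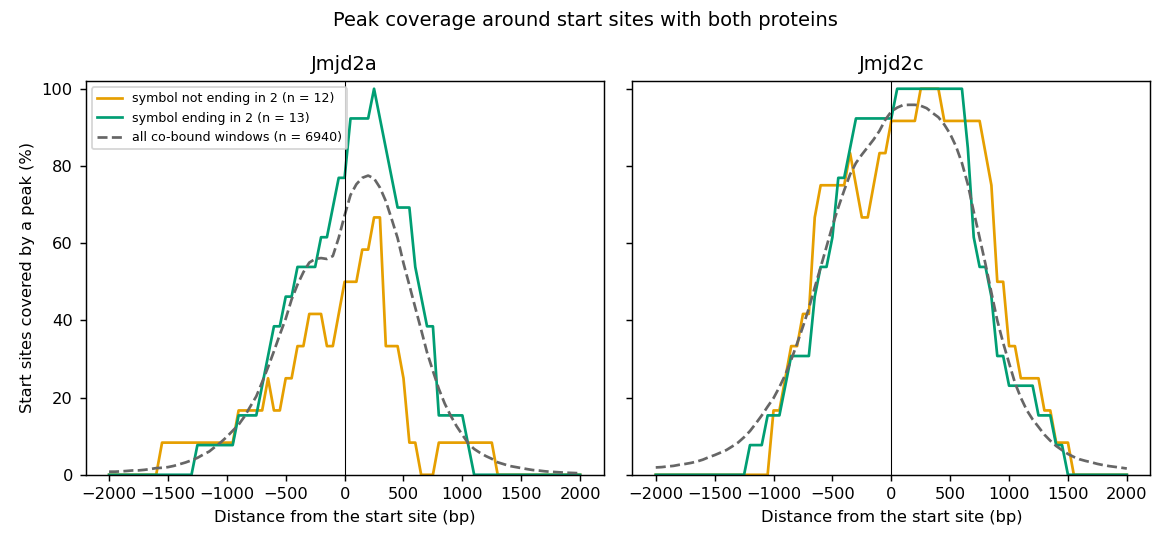
Share of start sites (%) covered by a peak at each distance in bp from the start, for the 12 cytosolic members with both proteins, the 13 members ending in 2 with both, and the 6940 start-site windows of the deposited table (dashed). Near the start the Jmjd2a curves of the classes run on either side of the dashed line, and the Jmjd2c curve of the cytosolic members lies above the other curves at 750 bp inside the gene. One gene is a step of about 8 points in the member curves.

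Coverage along the promoter was read at a few distances. It counted every peak by position, also the Jmjd2a peak 925 to 119 bp upstream of Yars, which is named for S100pbp and not counted for Yars elsewhere. That peak enters the cytosolic share at 500 bp upstream. At 200 bp inside the gene a Jmjd2a peak covered 58.3% of the 12 cytosolic members with both proteins and 92.3% of the 13 others, against 77.5% of all 6940 windows bound by both. At 500 bp inside the gene these shares were 25%, 69.2% and 54.8%, and at 500 bp upstream 25%, 46.2% and 40.4%. Jmjd2c covered 91.7%, 100% and 88.3% at 500 bp inside the gene and 75%, 61.5% and 64.5% at 500 bp upstream. Further inside the gene, at 750 bp, the Jmjd2c shares were 91.7%, 53.8% and 61.4%, with the cytosolic members higher. The order and size of that difference changed with distance. At 600 bp the shares were 91.7%, 100% and 80.7%, and at 1000 bp 33.3%, 23.1% and 28.9%.

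Pairing the cytosolic and the mitochondrial enzyme for the same amino acid gave 16 pairs, with Eprs standing for both glutamate and proline and Tarsl2 set aside. Jmjd2a was at both genes in 7 pairs, at the mitochondrial gene alone in 6 (Ears2, Iars2, Mars2, Nars2, Pars2 and Wars2), at the cytosolic gene alone in 1 (Cars) and at neither in 2 (alanine and arginine). In the tryptophan pair, Wars2 had the widest Jmjd2a peak of the family and Wars had none, although Wars carried a Jmjd2c peak of 1563 bp, wider than the 1340 bp at Wars2. In the methionine pair Mars had no Jmjd2a either, and its Jmjd2c peak of 1805 bp was narrower than the 1955 bp at Mars2. In 6 pairs the genes had separate Jmjd2a peaks, and the mitochondrial one was wider in 5. These were phenylalanine (843 against 383 bp at Farsa), leucine (800 against 349 bp), serine (1046 against 469 bp), threonine (1232 against 989 bp) and tyrosine (1200 against 418 bp). The Sars2 peak is also named for its neighbour Mrps12. Valine ran the other way, with 958 bp at Vars and 392 bp at Vars2. That Vars peak, although named for Vars, lies nearer to the start of the neighbouring D17H6S56E-5.

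**Figure D4:**
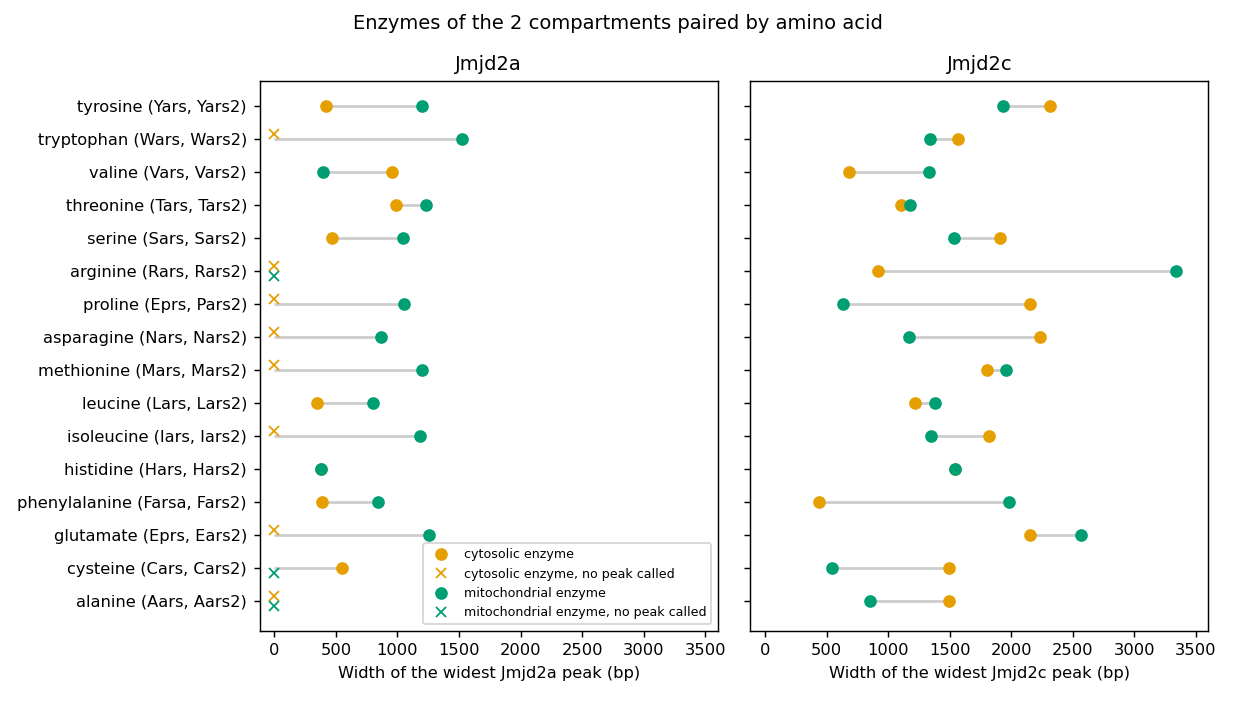
Width in bp of the widest Jmjd2a peak (left) and Jmjd2c peak (right) for the cytosolic (orange) and mitochondrial (green) enzyme of each amino acid, with crosses at 0 for genes with no peak called. In the Jmjd2a panel green lies to the right of orange in most rows, with valine and cysteine the other way, and in the Jmjd2c panel the order is mixed. The histidine genes share their peaks, so their points coincide.

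Several members begin beside another gene, so that a peak cannot be given to one of them. Another start lay within 1000 bp of 10 members at 9 promoters, 5 in each class. Hars and Hars2 start 75 bp apart, head to head, under 1 peak of each protein, which counts for both classes. Kars starts 5 bp from Terf2ip, a telomere protein gene, Rars2 starts 16 bp from Orc3, an origin recognition gene, and Sars2 starts 147 bp from Mrps12, a mitochondrial ribosomal protein gene. Ears2 pairs with Ubfd1 (135 bp apart), Fars2 with Lyrm4, which serves iron-sulfur cluster assembly (286 bp), Yars with S100pbp (216 bp), Vars with D17H6S56E-5 (161 bp) and Wars with Wdr25 (98 bp). At Yars the files name a second Jmjd2a peak of 807 bp, 925 to 119 bp upstream, for S100pbp. Were it counted for Yars, its widest peak would be 807 bp in place of 418 bp.

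The difference in width held among members with no neighbouring start. There the median Jmjd2a width was 422 bp at the 8 of 15 cytosolic members with Jmjd2a and 1186 bp at the 9 of 12 ending in 2. With a neighbouring start it was 664 bp (4 of 5 members) and 944.5 bp (4 of 5). Without Hars and Hars2 the medians were 454 and 1118 bp.

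Cytosolic synthetases fall into those held in the multi-synthetase complex and those outside it, a division made here after the values had been seen. Within the complex Jmjd2a was at 3 of 8 genes, Kars (910 bp), Lars (349 bp) and Qars (295 bp), and not at Dars, Eprs, Iars, Mars or Rars. Outside it Jmjd2a was at 9 of 12, with a median of 454 bp, and not at Aars, Nars or Wars. The shares of 37.5% and 75% lie on either side of the 64.7% of all genes with Jmjd2c, and with so few genes the difference is a description only. Jmjd2c was at every gene of both groups, with medians of 1735 and 1551 bp. By catalytic fold the enzymes were alike: Jmjd2a was at 12 of 18 class I genes (median 879 bp) and at 13 of 18 class II genes (843 bp), with Eprs, which has both folds, left out.

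The members with Jmjd2c alone did not all have narrow Jmjd2c peaks. The 8 cytosolic ones had a median Jmjd2c width of 1684 bp, against 1602 bp at the 12 with both proteins, and included Nars (2233 bp) and Eprs (2150 bp), while Iars had 1816 bp, Aars 1491 bp, Rars 915 bp and Dars 418 bp. Among members ending in 2, the 4 with Jmjd2c alone had a median of 871.5 bp, against 1376 bp at the other 13. There Rars2 stood at 3335 bp, and Tarsl2, Aars2 and Cars2 at 893, 850 and 540 bp. Rars, for cytosolic arginine, was the nearest member outside the definition for Jmjd2a. A Jmjd2a peak of 369 bp (chr11:35838512-35838880) ended 3984 bp upstream of its start, beside a second Jmjd2c peak of 1083 bp that ended 3249 bp upstream. Sars, at 792 bp, was the furthest Jmjd2a peak inside the definition.

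Genes for proteins that work with the synthetases were listed by their known roles. Of 9 genes for scaffolds of the complex and other factors of tRNA charging, 9 had Jmjd2c, against 37.9% of all genes. Jmjd2a was at 7 (77.8%, against 64.7% of all genes with Jmjd2c). The median Jmjd2a width was 525 bp over those with a peak named for them, which leaves out Aimp1 and Yrdc. The scaffold gene Eef1e1 had 968 bp, Prorsd1 950 bp, Dtd2, which removes D-amino acids from tRNA, 525 bp, and Trnt1, which adds the CCA end of tRNA, 517 bp. Aarsd1 and Dtd1 had Jmjd2c alone. Of 8 mitochondrial factors 6 had Jmjd2a (75%, against 27.4% of all genes) and 7 had Jmjd2c (87.5%, against 37.9%). Both proteins were at 5, and 64.7% of all genes with Jmjd2c had Jmjd2a. The median Jmjd2a width was 989 bp over those with a peak named for them. Elac2, which trims tRNA ends, had 1781 bp, and the subunits of the amidotransferase that corrects the glutamine tRNAs had 1557 bp (Qrsl1), 989 bp (Gatc) and 801 bp (Gatb, which had no Jmjd2c). Ptrh2 and Ptcd1 had Jmjd2c alone.

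Of 6 genes for selenocysteine, which is made on its own tRNA, 5 had Jmjd2c (83.3%, against 37.9% of all genes) and 4 had both proteins. Both were at 24.5% of all genes, and 64.7% of genes with Jmjd2c had Jmjd2a. The 4 were Sepsecs (Jmjd2a peak of 1578 bp), Sephs1 (1380 bp), Eefsec (671 bp) and Secisbp2 (275 bp). Pstk had Jmjd2c alone and Sephs2 neither. Genes for elongation factors of translation, with the kinase gene Eef2k, were listed by compartment. Jmjd2a was at 2 of 7 cytosolic ones (28.6%) and 3 of 4 mitochondrial ones, against 27.4% of all genes. Jmjd2c was at 4 of 7 cytosolic ones (57.1%) and at all 4 mitochondrial ones, against 37.9% of all genes. Of all genes with Jmjd2c, 64.7% had Jmjd2a. The cytosolic Eef2k, a kinase of elongation factor 2, had 700 bp, and Eef1d had both proteins with no Jmjd2a peak named for it. Eef1a1 and Eef1b2 had Jmjd2c alone, and Eef1a2, Eef1g and Eef2 had neither. Of the mitochondrial ones, Gfm1 had 578 bp, Tufm 539 bp, Tsfm 415 bp, and Gfm2 Jmjd2c alone. Their median of 539 bp lay under the 813 bp of all genes with Jmjd2a, whereas the 989 bp of the mitochondrial charging factors lay above it.

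The regulators and targets of the amino acid response, the pathway that acts on the CARE, were listed as well. Jmjd2a was at 5 of 26 (19.2%, against 27.4% of genes), Jmjd2c at 13 of 26 (50%, against 37.9%) and both at 3 of 26 (against 24.5%). Thus 3 of the 13 with Jmjd2c had Jmjd2a, against 64.7% of all genes with Jmjd2c. Cebpg, which partners Atf4, had a Jmjd2a peak of 661 bp, the kinase gene Eif2ak3 571 bp and the serine synthesis gene Psat1 468 bp, each with Jmjd2c. Cth, for cysteine synthesis, had 916 bp and Atf5 465 bp, without Jmjd2c. Jmjd2c alone was at Eif2ak2, Eif2ak4, Asns, Trib3, Sesn2, Phgdh, Psph, Shmt2, Slc3a2 and Ppp1r15a. Neither was called at Atf4 itself, Eif2ak1, Atf3, Ddit3, Cebpb, Chac1, Mthfd2, Slc7a11, Slc7a5, Ddit4 or Nupr1. Asns, the asparagine synthetase gene, thus shared with Aars and Iars the pattern of Jmjd2c without Jmjd2a, while Gars, Tars and Yars had both.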

How the data were processed

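The authors deposited, per the file headers, other values than measurements: positions in bp of Jmjd2a and Jmjd2c peaks, the nearest start site and a distance, and a table of co-bound windows of 1 kb on either side of a start site. Bowtie 0.12.7, SAMtools, bedtools 2.25.0 and build mm10 are named in the submitters' processing notes. No label or header names the peak caller, threshold, control or pooling, and a shallow library can give fewer and narrower peaks. Groups were taken from sample titles. Genes were matched by accession (16875 of 17007) to RefSeq on GRCm38.p6. The deposited distance could be recomputed for 8974 Jmjd2a peaks and for all 10521 Jmjd2c peaks. Positions are printed counting from 1. A member with several peaks of a protein is represented by the widest. Described in full are members with the widest and narrowest Jmjd2a peaks, those with 1 protein, those with a peak edge 500 to 5000 bp from a start, and shared promoters. From each pathway list the occupied genes with the widest Jmjd2a peaks and the unoccupied genes are named. The members and all lists were chosen with earlier results of these data known. Some items are not reported here. Shares of members with Jmjd2a carry exact (Clopper-Pearson) 95% binomial intervals. The code was tested on simulated peaks. Python 3.11.15, numpy 2.4.6, pandas 2.3.3, scipy 1.17.1 and matplotlib 3.10.9 were used.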

Additional observations from a re-analysis of the deposited data

How the results depend on the processing

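Over 70 alternatives for 11 results (counts of members, median widths and overlap), 66 stayed near the value given, counts within 1.5 times and median widths within the interquartile range of the class. The other 4 came from keeping the wider 50% of each peak list (over 706 bp for Jmjd2a and 1302 bp for Jmjd2c), a cut on width itself. Jmjd2a was then at 3 of 20 cytosolic members and both proteins at 1, while at the 17 members ending in 2 Jmjd2c was at 11 and both at 8. Jmjd2a kept 11 of those 17, and the shares of all genes were 15.7% for Jmjd2a and 22.7% for Jmjd2c. A window of 500 bp gave 10 cytosolic members with Jmjd2a (without Sars and Vars), and one of 5000 bp gave 13 (with Rars). Counting Tarsl2 as cytosolic gave 12 of 21 against 13 of 16. That placing could not change the number of members with Jmjd2a, since Tarsl2 had none. Matching by accession was required to return the same members. The 66 thus include alternatives that could not move, and their number overstates how far the results were tried. With starts from the RefSeq table Aars gained Jmjd2a, Tars2 lost both proteins and Aars2 lost Jmjd2c. Median Jmjd2a widths stayed at 404 to 454 bp for cytosolic members and 1046 to 1118 bp for the others. Leaving out Hars and Hars2, and taking the narrowest peak per member, were chosen after seeing the data. No paired analysis was possible because the files hold no value per library. Unknown depth limits every missing call.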
